A study of Mus musculus with 2 samples.

Results

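The epidermal differentiation complex is a cluster of genes for proteins of the outermost, cornified cells of the skin. Its members were chosen by name, as genes whose symbol begins with Lce or Sprr or equals Lor, Flg, Flg2, Hrnr, Rptn, Ivl, Crnn, Crct1, Tchh, Tchhl1, Kprp, Smcp or Pglyrp3. This gave 49 of the 31053 genes counted: 21 Lce genes, 15 Sprr genes and 13 others. In the GENCODE vM21 annotation of the mm10 genome 49 of 49 members lay on chromosome 3, at chr3:92014583-93471980, a span of 1457 kb.

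Single-cell RNA libraries were made with the 10x Genomics Chromium system from skin of C57Bl6 mice that were 8 weeks old, male and female. The sitagliptin group received 100 ng of sitagliptin, an inhibitor of the protease DPP4, in 100 µl of phosphate-buffered saline (PBS) by injection into the dermis, and the control group received PBS alone. A time of 48 h is given with the skin processing, but not the event that starts it, and the labels do not say how many animals a library pools. There was 1 library per treatment, so no difference was tested, cells are not replicates, and the 95% intervals in parentheses reflect counting error alone. In the deposited names each library carries the first letter of the opposite treatment, so they are called sitagliptin-labelled and PBS-labelled, and an exchange of the labels would turn every direction given here.

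After removal of barcodes with fewer than 500 genes, fewer than 1000 unique molecular identifiers (UMIs) or over 10% mitochondrial UMIs, 18380 of 22085 barcodes (83.2%) were retained in the sitagliptin-labelled library and 5932 of 10456 (56.7%) in the PBS-labelled library. The median depth of the retained cells was 2197 UMIs in the sitagliptin-labelled library and 6903 UMIs in the PBS-labelled library. There were 75 barcodes present in both libraries, 41 of them among retained cells. Cells were clustered without the members, and clusters were named as classes from marker lists that hold no member. Of the retained cells, 32.7% in the sitagliptin-labelled library and 1.01% in the PBS-labelled library lay in 3 clusters that matched a keratinocyte class but whose share differed over 10-fold between the libraries. That limit was set after the data were seen and was applied to keratinocyte clusters alone, and these 3 were kept out of the classes. Clusters of other cell types and unnamed clusters also differed over 10-fold in share, among them clusters that supply the free-RNA level used below. A further 25.7% of sitagliptin-labelled and 4.60% of PBS-labelled cells had no name. Levels below are UMIs summed over the cells of a class, scaled by the UMI total of that class to the usual CPM unit, and a UMI stands for 1 captured molecule whatever the length of the transcript.

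Keratinocytes move outward through basal, spinous and granular layers and end as dead, flattened cells. In the granular layer the membrane is lined by a cornified envelope, in which transglutaminases join loricrin, involucrin, the small proline-rich (Sprr) and the late cornified envelope (Lce) proteins. Filaggrin bundles keratin filaments and is broken down in the cornified layer. With its relatives it belongs to the S100 fused-type proteins.

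The promoter sequences of 6 members are shown first, since these genes are described most fully below; the levels do not rest on these letters, and no link between them was tested. Each run is the 150 bases before the RefSeq transcript start in the GRCm38.p6 build, 5′ to 3′ on the strand of the gene. Capitals mark the AP-1 letters TGANTCA, read on both strands, and the TATA box letters TATAAA, also on both strands. The runs lie at chr3:92083143-92083292 (minus strand), chr3:93273396-93273545 (plus), chr3:92573736-92573885 (minus), chr3:92485882-92486031 (minus), chr3:92438780-92438929 (minus) and chr3:93019062-93019211 (minus).
Lor: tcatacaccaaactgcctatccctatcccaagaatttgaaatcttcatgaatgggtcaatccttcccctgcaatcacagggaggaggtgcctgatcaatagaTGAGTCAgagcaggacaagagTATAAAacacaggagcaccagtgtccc
Flg: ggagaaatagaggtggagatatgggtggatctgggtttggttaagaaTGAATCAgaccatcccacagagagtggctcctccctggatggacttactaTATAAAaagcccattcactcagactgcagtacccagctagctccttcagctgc
Ivl: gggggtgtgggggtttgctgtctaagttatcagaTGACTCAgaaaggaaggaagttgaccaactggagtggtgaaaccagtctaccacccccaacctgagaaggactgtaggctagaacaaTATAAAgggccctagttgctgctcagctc
Sprr1a: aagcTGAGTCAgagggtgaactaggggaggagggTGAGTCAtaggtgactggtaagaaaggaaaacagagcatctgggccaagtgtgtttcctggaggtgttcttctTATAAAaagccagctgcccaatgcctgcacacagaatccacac
Sprr1b: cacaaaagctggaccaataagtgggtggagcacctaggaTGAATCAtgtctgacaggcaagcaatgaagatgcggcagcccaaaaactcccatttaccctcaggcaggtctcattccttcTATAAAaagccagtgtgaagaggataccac
Lce1m: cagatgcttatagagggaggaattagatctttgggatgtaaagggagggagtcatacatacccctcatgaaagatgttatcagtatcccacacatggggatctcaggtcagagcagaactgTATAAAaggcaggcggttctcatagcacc
The TATA box letters began at position -27 in Lor, -29 in Ivl, -30 in Sprr1b and -29 in Lce1m, counted from -1 at the last base before the start. They began at -53 in Flg and at -43 in Sprr1a. These positions depend on the RefSeq start. GENCODE vM21 starts Flg at chr3:93273523, Sprr1a at chr3:92485895 and Sprr1b at chr3:92438789, each inside the run shown. Counted from the RefSeq start, the AP-1 letters began at -48 in Lor, at -103 in Flg, at -116 in Ivl and at -111 in Sprr1b. In Sprr1a they began at both -146 and -116. The 150 bases shown for Lce1m did not contain them.

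Promoter windows of 300 bases, from 250 before to 50 after the start, were matched for 44 of 49 members. The AP-1 letters were found in 16 of these 44 windows (36.4%), against 7.81% of all 32851 mouse windows of that length. They were found in 9 of 14 Sprr windows, in 7 of 10 windows of the other members and in 0 of 20 Lce windows. The TATA box letters were found in 20 of 44 member windows (45.5%), against 13.6% of all windows, and in 4 of 20 Lce windows. A match is a description of letters and not a bound site.

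Granular keratinocytes, a cluster of 741 sitagliptin-labelled and 263 PBS-labelled cells, were the class with clear expression of the complex. Their leading genes included Asprv1, a protease that processes filaggrin, and Cnfn, Cdsn and Nccrp1, all from the granular marker list. Their depth was close in the libraries, with medians of 14100 UMIs in sitagliptin-labelled and 15597 UMIs in PBS-labelled cells. The members together made up 7920 CPM in sitagliptin-labelled and 8352 CPM in PBS-labelled granular cells, a ratio of 0.948 (0.937 to 0.959). The ratio was 0.543 at a finer clustering (Leiden resolution 2) and 0.738 with the left-out clusters returned to their classes, of which 1 was led by granular markers and held 1635 sitagliptin-labelled and 29 PBS-labelled cells. Leiden resolution 2 named the classes anew, so its ratios compare partly other cells. Its granular class was cluster 17 (586 sitagliptin-labelled and 44 PBS-labelled cells) and cluster 28 (206 and 67 cells). Its spinous class took in cluster 14 (503 and 180 cells) and lost cluster 11, led by Krt6b and Krt16, which had no name. A set of cells that are not keratinocytes was used here as the free-RNA level. It held fibroblasts, macrophages or monocytes, T or innate lymphoid cells, endothelial cells, pericytes or smooth muscle cells and an unnamed Lyz1-led cluster. The sum there was 460 CPM in the sitagliptin-labelled library (274 cells) and 148 CPM in the PBS-labelled library (1735 cells). Langerhans or dendritic cells, skeletal muscle cells and melanocytes were left out of it. In the PBS-labelled library these had 512 CPM (97 cells), 845 CPM (115 cells) and 121 CPM (120 cells), in that order. Calls against the free-RNA level thus depend on the cells chosen. The granular sums were far above the free-RNA level in both libraries. Its cells were shallower than granular, spinous, upper follicle and basal cells, with medians of 1899.5 UMIs in sitagliptin-labelled and 4453 UMIs in PBS-labelled cells. Calls above or below this level are therefore not matched for depth. Spinous cells had 443 CPM in the sitagliptin-labelled and 555 CPM in the PBS-labelled library, upper follicle cells 371 and 366 CPM and basal cells 201 and 134 CPM. The spinous ratio of 0.799 turned to 1.29 at Leiden resolution 2 and to 1.11 with the left-out clusters returned. These sums were below the free-RNA level in the sitagliptin-labelled library, while spinous and upper follicle cells were above it in the PBS-labelled library.

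**Figure D1:**
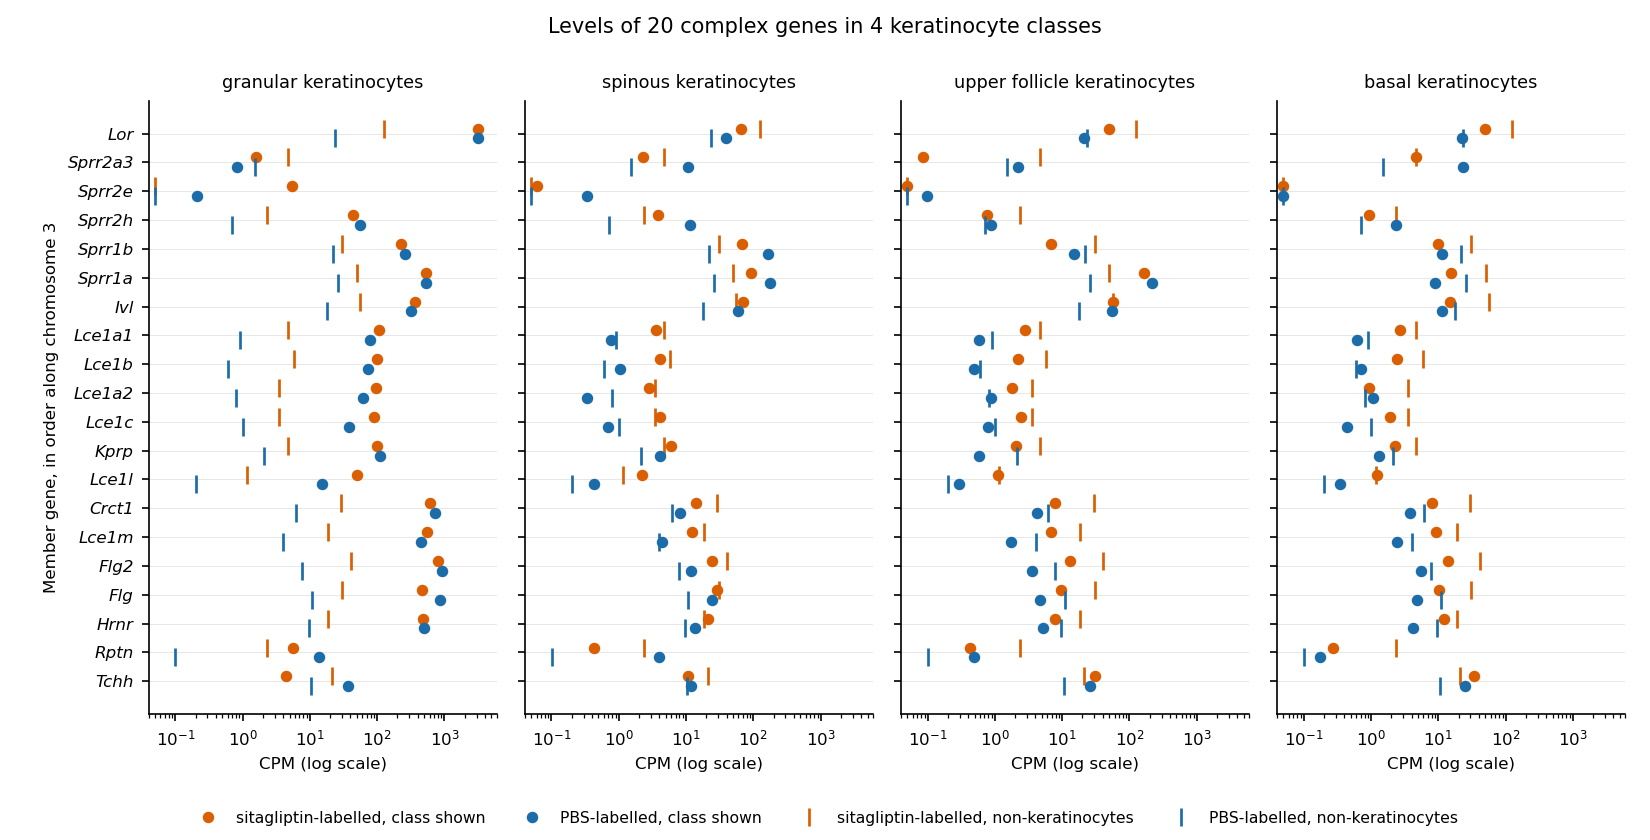
Levels of 20 members in 4 keratinocyte classes, in CPM on a log scale, with genes in order along chromosome 3. Circles show the class and vertical ticks the cells that are not keratinocytes in the same library; values of 0 and below the axis are drawn at the left edge. In granular cells nearly all circles lie far to the right of the ticks, while in basal cells most lie to the left of them.

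Of the 49 members, 33 had at least 20 UMIs over both libraries in granular cells and 31 of these 33 were above the free-RNA level in both libraries. In all retained cells 48 members had at least 1 UMI. Sprr2k had none among 142217027 UMIs, which allows up to 0.0211 CPM, and Lce3a, Crnn, Sprr3, Tchhl1 and Lce3b had 1 or 2 each. Crnn and Sprr3, known from the lining of mouth and oesophagus, were thus at the limit of detection in this skin. The 8 members of most UMIs, Lor, Flg2, Crct1, Flg, Sprr1a, Lce1m, Hrnr and Ivl, made up 87.8% of member UMIs in sitagliptin-labelled and 89.6% in PBS-labelled granular cells.

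Loricrin (Lor), the main protein of the mouse envelope, had the highest level. It stood at 3178 CPM (3146 to 3211) in sitagliptin-labelled and 3193 CPM (3143 to 3244) in PBS-labelled granular cells, a ratio of 0.995 (0.977 to 1.01), which became 0.553 at Leiden resolution 2. Involucrin (Ivl), a scaffold laid down early in envelope assembly, stood at 370 CPM (359 to 381) in sitagliptin-labelled and 319 CPM (303 to 336) in PBS-labelled cells. That is a ratio of 1.16 (1.09 to 1.23), larger than counting error and below the 1.5-fold limit used here to call a difference. Crct1, whose product is a small cysteine-rich protein, had 602 CPM in sitagliptin-labelled and 714 CPM in PBS-labelled cells, a ratio of 0.843 (0.809 to 0.879), which became 0.468 at Leiden resolution 2 and 1.15 after thinning each cell to 1000 UMIs. The ratio of Ivl was 0.820 at Leiden resolution 2.

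Among the S100 fused-type genes, Flg2 (filaggrin 2) had 804 CPM in sitagliptin-labelled and 910 CPM in PBS-labelled granular cells. Hornerin (Hrnr), a related repeat protein, had 474 CPM in sitagliptin-labelled and 489 CPM in PBS-labelled cells, a ratio of 0.969 (0.923 to 1.02). At Leiden resolution 2 the ratio was 0.495 for Flg2 and 0.575 for Hrnr. Filaggrin itself (Flg), whose breakdown products hold water in the cornified layer, differed by more than 1.5-fold. It had 457 CPM (445 to 470) in sitagliptin-labelled and 861 CPM (835 to 887) in PBS-labelled cells, a ratio of 0.531 (0.510 to 0.553). A single PBS-labelled cell held 30.3% of the Flg UMIs of its class, and without the cell of most Flg UMIs in each library the levels were 437 CPM in sitagliptin-labelled and 602 CPM in PBS-labelled cells, a ratio of 0.726. The difference then no longer reached 1.5-fold, while at Leiden resolution 2 the ratio was 0.292. Repetin (Rptn), another relative, was low in both libraries, at 5.59 and 13.7 CPM, sitagliptin-labelled before PBS-labelled, and its ratio of 0.407 (0.284 to 0.583) became 0.457 without the highest cells. Rptn RNA lay in few cells, 23 sitagliptin-labelled and 12 PBS-labelled.

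Trichohyalin (Tchh), the relative of filaggrin found in the inner root sheath of hairs, had 4.37 CPM in sitagliptin-labelled and 36.4 CPM in PBS-labelled granular cells. Of its 175 UMIs in the PBS-labelled cells, 163 came from 1 cell. That cell had 15645 UMIs in all, 0 of Lor, 0 of Flg and 0 of the 6 inner root sheath keratins on the marker list. Without the highest cells the order turned, to 4.20 CPM in sitagliptin-labelled and 2.51 CPM in PBS-labelled cells, both below the free-RNA levels of 21.06 and 10.47 CPM. In basal cells Tchh was more widely spread, at 33.7 CPM in 184 sitagliptin-labelled cells with a UMI and 25.03 CPM in 196 PBS-labelled ones; these levels were above those of cells that are not keratinocytes in both libraries, as were those of upper follicle cells.

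The Sprr genes encode short proline-rich proteins that cross-bridge the envelope. Sprr1a had 524 CPM (511 to 538) in sitagliptin-labelled and 539 CPM (518 to 560) in PBS-labelled granular cells, and Sprr1b had 227 CPM in sitagliptin-labelled and 262 CPM in PBS-labelled cells, a ratio of 0.868 (0.811 to 0.929). Sprr2h, the next in level, had 44.0 and 55.6 CPM, sitagliptin-labelled before PBS-labelled. These 3 Sprr genes were within 1.5-fold between the libraries in this class, but not at Leiden resolution 2, where the ratios were 0.632 for Sprr1a, 0.578 for Sprr1b and 0.411 for Sprr2h. Sprr2d was higher, at 14.7 CPM in sitagliptin-labelled and 4.79 CPM in PBS-labelled cells, a ratio of 3.07 (1.98 to 4.97), from 31 and 10 cells with a UMI. Sprr2e had 63 UMIs in 7 sitagliptin-labelled cells and 1 UMI in 1 PBS-labelled cell, a ratio of 26.4 (4.58 to 1061). These last differences rest on very few cells.

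Lce genes encode envelope proteins added late, and 17 of the 21 had at least 20 UMIs in granular cells. Lce1m was the highest, at 542 CPM (529 to 556) in sitagliptin-labelled and 455 CPM (436 to 474) in PBS-labelled cells, a ratio of 1.19 (1.13 to 1.25), and 0.674 at Leiden resolution 2. Lce1a1 had 107 CPM in sitagliptin-labelled and 77.5 CPM in PBS-labelled cells, and Lce1b had 101 CPM in sitagliptin-labelled and 72.3 CPM in PBS-labelled cells. Of the 17 measured Lce genes, 7 were at least 1.5-fold higher in sitagliptin-labelled cells and 3 at least 1.5-fold lower. The higher ones were Lce1a2 (97.8 CPM in sitagliptin-labelled against 60.8 CPM in PBS-labelled cells), Lce1c (89.3 against 38.7 CPM), Lce1l (51.0 against 15.4 CPM), Lce3c (18.3 against 5.83 CPM) and the less abundant Lce1i, Lce1j and Lce3d. The lower ones were Lce1e, Lce1f and Lce1g, of which Lce1f was the most abundant, with 27.4 CPM in sitagliptin-labelled and 45.8 CPM in PBS-labelled cells. At Leiden resolution 2 the ratios of Lce1a1 (0.787), Lce1b (0.785) and Lce1a2 (0.914) turned below 1, and that of Lce1c, at 1.36, no longer reached 1.5-fold.

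The Lce values rested on a handful of cells. In the sitagliptin-labelled library 7 of 741 granular cells held 50% of all Lce UMIs, and in the PBS-labelled library 2 of 263 cells did. The 10 cells of most Lce UMIs held 58.2% of them in the sitagliptin-labelled and 88.2% in the PBS-labelled library. Lce1m was the leading Lce gene in 9 of these 10 sitagliptin-labelled and 8 of these 10 PBS-labelled cells, and the first cell of each library had 13 Lce genes detected. In that first cell the Lce genes were 13.4% of all UMIs in the sitagliptin-labelled library and 13.01% in the PBS-labelled library. Without the highest cell of each gene in each library, 17 of 17 measured Lce genes had a ratio above 1, between 1.05 and 7.22, and Lce1m had 489 CPM in sitagliptin-labelled and 259 CPM in PBS-labelled cells. The median share of a gene's UMIs in that highest cell was 21.8% in the sitagliptin-labelled and 61.3% in the PBS-labelled library. Removal was thus unequal, taking 1 of 741 sitagliptin-labelled but 1 of 263 PBS-labelled cells and more of the PBS-labelled UMIs. The Lce genes also lay together in the top cells, so the 17 ratios are not separate and no shared direction is read from them. Whether the Lce ratios differ from 1 beyond the spread between cells was not tested.

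Over all members in granular cells, 9 of 33 measured passed 1.5-fold upward and 7 of 33 passed it downward in sitagliptin-labelled cells, with a median log2 ratio of 0.04; a call adds 1 CPM to both levels. Over all genes with at least 20 UMIs in this class the shares were 4.88% higher and 2.63% lower, and the median log2 ratio was 0.02. Among genes of at least 50 CPM in a library, 3 of 16 members were higher (Lce1a2, Lce1c and Lce1l) and 1 of 16 lower (Flg), against 1.81% and 0.718% of all such genes. Without the highest cells, a removal that takes a larger share of the PBS-labelled cells, 14 members were higher and 2 lower. At Leiden resolution 2, in partly other cells, 17 were lower. Over the alternatives the median log2 ratio lay between -0.66, at Leiden resolution 2, and 1.28, with at most 5% mitochondrial UMIs.

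**Figure D2:**
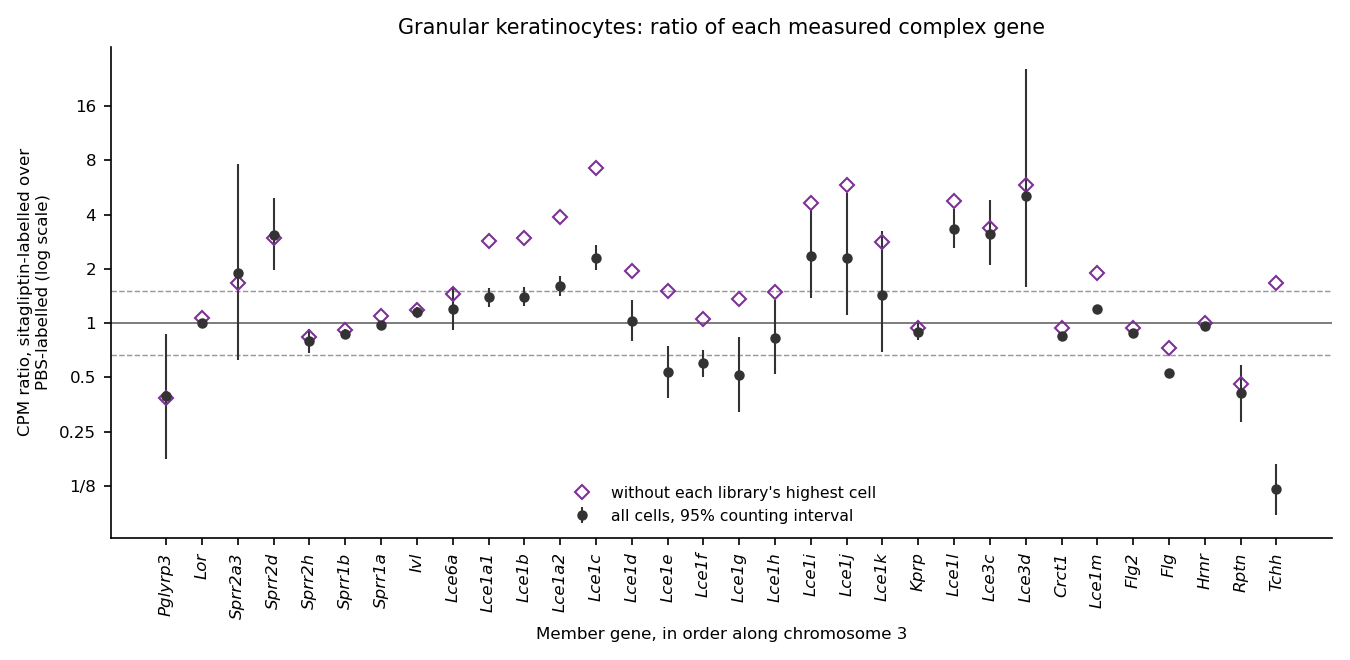
Ratio of CPM, sitagliptin-labelled over PBS-labelled, for the measured members in granular cells, in order along chromosome 3, on a log scale; Sprr2e is left out because the PBS-labelled cells held 1 UMI. Dots with lines show all cells and the 95% counting interval, diamonds the ratio without the highest cell of each library, and dashed lines the 1.5-fold limits. The diamonds of the Lce1 genes lie above the dots, Tchh crosses 1, and Lor, Sprr1a, Sprr1b, Ivl, Kprp, Flg2 and Hrnr keep within the limits.

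Members differed in how many granular cells carried them. This was measured for Lor, Ivl, Sprr1a, the summed Lce genes and all members together. Among these Ivl was the most evenly spread. It had 50% of its UMIs in 105 of 741 cells (14.2%) in the sitagliptin-labelled and 39 of 263 cells (14.8%) in the PBS-labelled library. Lor reached 50% in 36 cells (4.86%) in the sitagliptin-labelled and 10 cells (3.80%) in the PBS-labelled library. All members together reached it in 48 sitagliptin-labelled cells (6.48%) and 12 PBS-labelled cells (4.56%). The median granular cell gave 0.243% of its UMIs to the complex in the sitagliptin-labelled and 0.155% in the PBS-labelled library, and the cell with the largest share gave 38.5% in the sitagliptin-labelled and 28.01% in the PBS-labelled library. A few cells thus held very large amounts of these transcripts in each library.

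**Figure D3:**
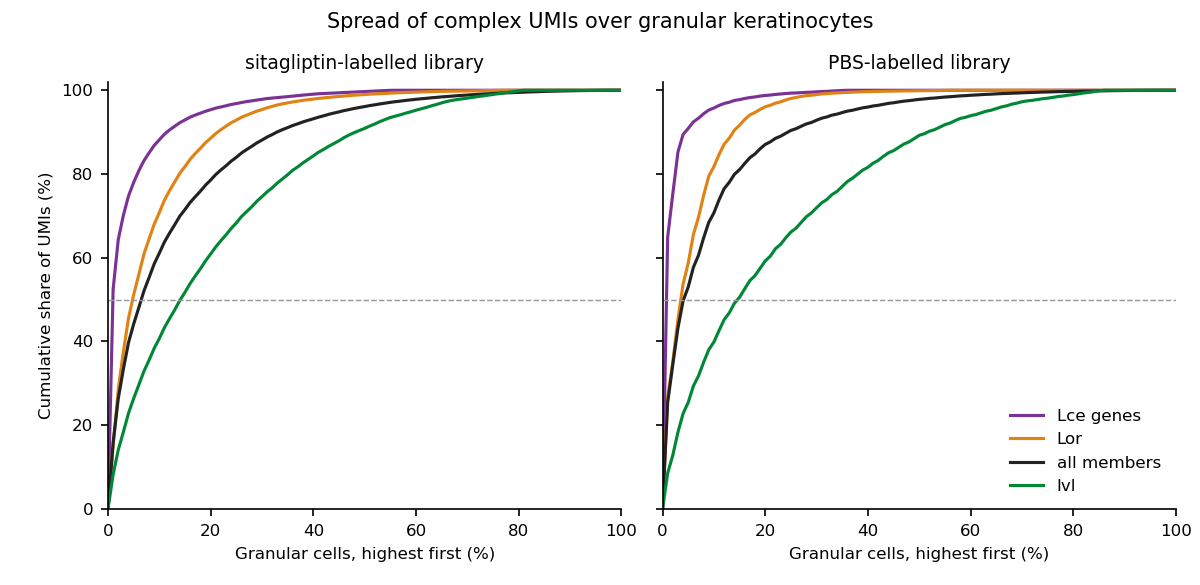
Cumulative share of UMIs (%) against the share of granular cells (%), with cells ranked from the highest, for the sitagliptin-labelled library on the left and the PBS-labelled library on the right. The Lce curve climbs fastest, Lor and all members follow, and Ivl climbs slowest; the dashed line marks 50%, which Ivl reaches at 14.2% of sitagliptin-labelled and 14.8% of PBS-labelled cells.

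At the finer clustering (Leiden resolution 2), again without the members, most cells of the granular class lay in 3 sub-clusters. They are given here by number and leading genes and in order of their summed member level. At that resolution sub-cluster 14 was itself named spinous, and sub-clusters 17 and 28 granular. Sub-cluster 14 made up 54.0% of the granular class in the sitagliptin-labelled and 59.3% in the PBS-labelled library. Sub-cluster 14 (Krt77, Krt78) held 400 sitagliptin-labelled and 156 PBS-labelled cells, sub-cluster 17 (Cdsn, Spink5) 128 and 26 cells, and sub-cluster 28 (Asprv1, Cnfn) 206 and 67 cells. The summed member level was 1034 CPM in sitagliptin-labelled and 833 CPM in PBS-labelled cells of sub-cluster 14. It was 4947 CPM in sitagliptin-labelled and 4991 CPM in PBS-labelled cells of sub-cluster 17, and 27316 CPM in sitagliptin-labelled and 32266 CPM in PBS-labelled cells of sub-cluster 28. The members in sub-cluster 28 were thus 2.73% of all UMIs in sitagliptin-labelled and 3.23% in PBS-labelled cells. Its share of the class was 27.8% in the sitagliptin-labelled and 25.5% in the PBS-labelled library.

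The members differed in how much they rose from sub-cluster 14, named spinous at that resolution, to sub-cluster 28, named granular. Ivl was 2.56-fold higher in sub-cluster 28 than in sub-cluster 14 of the sitagliptin-labelled library and 3.41-fold in the PBS-labelled library. Sprr1a was 7.16-fold higher in the sitagliptin-labelled and 6.37-fold in the PBS-labelled library, and Sprr1b 6.02-fold and 4.18-fold, sitagliptin-labelled before PBS-labelled. In sub-cluster 14 Ivl was already at 248 CPM in sitagliptin-labelled and 190 CPM in PBS-labelled cells, and Sprr1a at 178 and 179 CPM. Hrnr, Flg and Flg2 were steeper, at 19.3-fold, 25.1-fold and 30.6-fold in the sitagliptin-labelled library and 32.1-fold, 101-fold and 73.1-fold in the PBS-labelled library. Lor was 75.5-fold higher in sub-cluster 28 than in sub-cluster 14 of the sitagliptin-labelled library and 205-fold in the PBS-labelled library. Lce1m was the steepest of the 8 abundant members in both, at 101-fold in the sitagliptin-labelled and 314-fold in the PBS-labelled library. Ivl, Sprr1a and Hrnr were the least steep of these 8, in that order, in both libraries. The pooled free-RNA level of the members was higher in the sitagliptin-labelled library, but not in each cluster of that set. T or innate lymphoid cells had 290 CPM in 27 sitagliptin-labelled and 279 CPM in 99 PBS-labelled cells. Lymphatic endothelial cells had 129 CPM in 8 and 132 CPM in 51 cells, in the same order. The other clusters of the set were higher in the sitagliptin-labelled library. The part of free RNA in the levels of sub-cluster 14 was not tested.

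**Figure D4:**
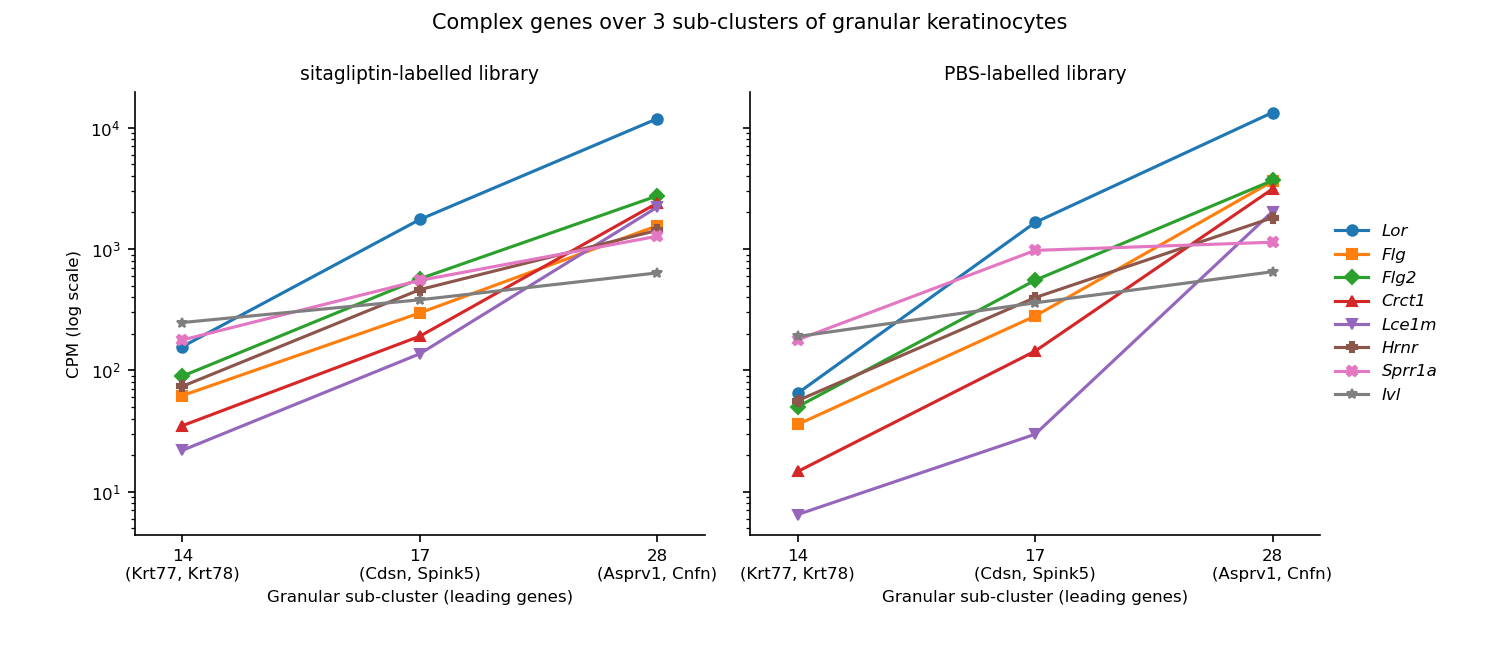
CPM on a log scale of 8 members over 3 sub-clusters of the granular class, with the sitagliptin-labelled library on the left and the PBS-labelled library on the right. Sub-cluster 14 was named spinous at Leiden resolution 2. Ivl differs least between the sub-clusters, Sprr1a next, and Lce1m most; Lor reaches 11845 CPM in sitagliptin-labelled and 13322 CPM in PBS-labelled cells of sub-cluster 28.

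Within sub-cluster 28 the more abundant members differed less between the libraries than many low ones. Lor had 11845 CPM in sitagliptin-labelled and 13322 CPM in PBS-labelled cells, Ivl 635 and 649 CPM, Sprr1a 1274 and 1136 CPM and Lce1m 2211 and 2034 CPM, each sitagliptin-labelled before PBS-labelled. Flg had 1555 CPM in sitagliptin-labelled and 3612 CPM in PBS-labelled cells there. Of the 3811 Flg UMIs behind that PBS-labelled value, 1254 came from 1 cell. Lce1l, with 202 CPM in sitagliptin-labelled and 68.2 CPM in PBS-labelled cells, Lce1f, with 107 and 206 CPM, and Rptn, with 19.5 and 58.8 CPM, were among the members that differed by over 1.5-fold there. In sub-cluster 17, which holds few PBS-labelled cells, Flg had 297 CPM in sitagliptin-labelled and 280 CPM in PBS-labelled cells. In sub-cluster 14 the order was the opposite one, with Flg at 62.0 CPM in sitagliptin-labelled and 35.8 CPM in PBS-labelled cells, a ratio of 1.73 (1.39 to 2.17). Lor (2.42), Flg2 (1.79), Crct1 (2.38) and Lce1m (3.38) also had ratios above 1 there.

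Genes that work with the complex mostly stayed within 1.5-fold in granular cells. Of 18 cornification genes outside the complex, 18 were measured, and 0 were higher and 0 lower by 1.5-fold, with a median log2 ratio of -0.02. Most of these 18 genes, like Tgm3 below, are on the marker lists that named the classes. Unlike the members, they were also open to the clustering. Their closeness between the libraries within a class is thus partly set by how the class was made. Those of highest level follow. Krtdap, a secreted differentiation protein, had 18706 CPM in sitagliptin-labelled and 19683 CPM in PBS-labelled cells, and Sbsn, another, had 11100 and 11003 CPM. Dmkn, a secreted protein of the same layers, had 8426 CPM in sitagliptin-labelled and 7650 CPM in PBS-labelled cells, and the calmodulin-like gene Calm4 had 5258 and 5393 CPM. The transglutaminases Tgm1, at 70.5 CPM in sitagliptin-labelled and 77.0 CPM in PBS-labelled cells, Tgm3 and Tgm5 were also within 1.5-fold. Among 22 regulators of the complex 0 were higher and 3 lower: Jun (116 CPM in sitagliptin-labelled, 242 CPM in PBS-labelled cells), Fosb (70.1 and 138 CPM) and Fos (179 and 290 CPM). These encode subunits of AP-1 and are also early stress genes of cell isolation, whose part was not tested. Klf4, a factor needed for the skin barrier, had 991 CPM in sitagliptin-labelled and 996 CPM in PBS-labelled cells. Of 11 genes of the Nrf2 pathway, which can induce Sprr2 genes and Slpi, 1 was higher (Slpi, 7.25 CPM in sitagliptin-labelled and 2.50 CPM in PBS-labelled cells) and 0 were lower.

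Spinous keratinocytes, with 1513 sitagliptin-labelled and 937 PBS-labelled cells, are the layer beneath, marked by Krt1 and Krt10. Sprr1a, Sprr1b and Ivl were the most abundant members above the free-RNA level of both libraries there. Sprr1b had 68.7 CPM (64.8 to 72.9) in sitagliptin-labelled and 166 CPM (159 to 174) in PBS-labelled spinous cells, a ratio of 0.414 (0.385 to 0.446). Sprr1a had 91.6 CPM (87.0 to 96.3) in sitagliptin-labelled and 176 CPM (168 to 184) in PBS-labelled cells, a ratio of 0.521 (0.487 to 0.557). The spinous class of Leiden resolution 2 lacks the Krt6b and Krt16 cluster 11 and includes cluster 14. In these partly other cells the ratio was 0.632 for Sprr1b and 0.950 for Sprr1a, the latter within 1.5-fold. Both levels were above those of cells that are not keratinocytes, at 30.4 and 21.8 CPM for Sprr1b and at 50.3 and 26.0 CPM for Sprr1a, sitagliptin-labelled before PBS-labelled. That set leaves out skeletal muscle cells and Langerhans or dendritic cells. In the PBS-labelled library these had 178 and 134 CPM of Sprr1a and 63.9 and 37.3 CPM of Sprr1b, in that order. Sprr2h was lower as well, at 3.88 CPM in sitagliptin-labelled and 11.3 CPM in PBS-labelled cells, a ratio of 0.343 (0.251 to 0.466). In the spinous class of Leiden resolution 2 its ratio was 0.840, within 1.5-fold. Ivl, in the same cells, had 70.7 CPM in sitagliptin-labelled and 60.0 CPM in PBS-labelled cells, a ratio of 1.18 (1.07 to 1.29), with a free-RNA level of 56.1 and 17.7 CPM and a ratio of 0.724 after thinning. The difference between the Sprr genes and Ivl was not tested.

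After thinning each cell to 1000 UMIs, which left out no retained cell, Sprr1b was detected in 4.03% of sitagliptin-labelled and 10.46% of PBS-labelled spinous cells, against 18.8% and 32.0% without thinning. In thinned cells that are not keratinocytes its share was 4.74% in the sitagliptin-labelled and 1.84% in the PBS-labelled library, so the sitagliptin-labelled spinous share was not above it. Before thinning the medians were 1899.5 UMIs in those sitagliptin-labelled and 4453 UMIs in those PBS-labelled cells, against 7773 and 9666 UMIs in spinous cells, and no order is read from these shares. Sprr1a was detected in 7.47% of thinned sitagliptin-labelled and 8.96% of thinned PBS-labelled spinous cells, against 29.7% and 31.5% without thinning. Its share in thinned cells that are not keratinocytes was 3.28% in the sitagliptin-labelled and 1.56% in the PBS-labelled library.

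Of 20 members measured in spinous cells, 10 passed 1.5-fold upward and 5 passed it downward in sitagliptin-labelled cells, against 2.42% and 2.56% of all genes with at least 20 UMIs. Of the 10 higher members 1 (Lce1l) was above the free-RNA level in both libraries, and of the 5 lower members 3 were, Sprr1a, Sprr1b and Sprr2h. Lor is an example of the higher ones, with 65.4 CPM in sitagliptin-labelled and 39.5 CPM in PBS-labelled spinous cells, against 125.2 and 23.4 CPM in cells that are not keratinocytes. The free-RNA level was higher in the sitagliptin-labelled library for 9 of the 10 higher members, and likewise for 5 of 5 lower and 5 of 5 uncalled ones; its part was not tested. Rptn was lower, at 0.425 CPM in sitagliptin-labelled and 4.03 CPM in PBS-labelled cells, with 85.1% of its PBS-labelled UMIs in 1 cell.

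At the finer clustering the Sprr differences were not of 1 size across the sub-clusters that held most spinous cells. In sub-cluster 11, led by the wound keratins Krt6b and Krt16 and by the stefin gene Stfa1, Sprr1b had 147 CPM in 461 sitagliptin-labelled and 292 CPM in 359 PBS-labelled cells, and Sprr1a had 128 CPM in sitagliptin-labelled and 282 CPM in PBS-labelled cells. Sprr2a3 had 2.79 CPM in sitagliptin-labelled and 20.9 CPM in PBS-labelled cells there. In sub-cluster 10 (Mt4, Krt1) Sprr1a was level, at 76.3 CPM in sitagliptin-labelled and 72.2 CPM in PBS-labelled cells, a ratio of 1.06 (0.878 to 1.27), while Sprr1b had 43.0 and 80.3 CPM, a ratio of 0.536 (0.433 to 0.661). In the dividing sub-cluster 19 (Top2a) the ratios were 0.933 (0.806 to 1.08) for Sprr1a and 0.674 (0.563 to 0.809) for Sprr1b. In the spinous cells of sub-cluster 14, which also held granular cells, Sprr1a had 57.8 CPM in 96 sitagliptin-labelled and 210 CPM in 24 PBS-labelled cells, a ratio of 0.275 (0.201 to 0.375). Sprr1b was thus lower in 4 of 4 sub-clusters, and Sprr1a by over 1.5-fold in sub-clusters 11 and 14. Ivl was lower in sub-cluster 11 as well, at 50.5 CPM (44.0 to 57.7) in sitagliptin-labelled and 66.8 CPM (59.7 to 74.6) in PBS-labelled cells.

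**Figure D5:**
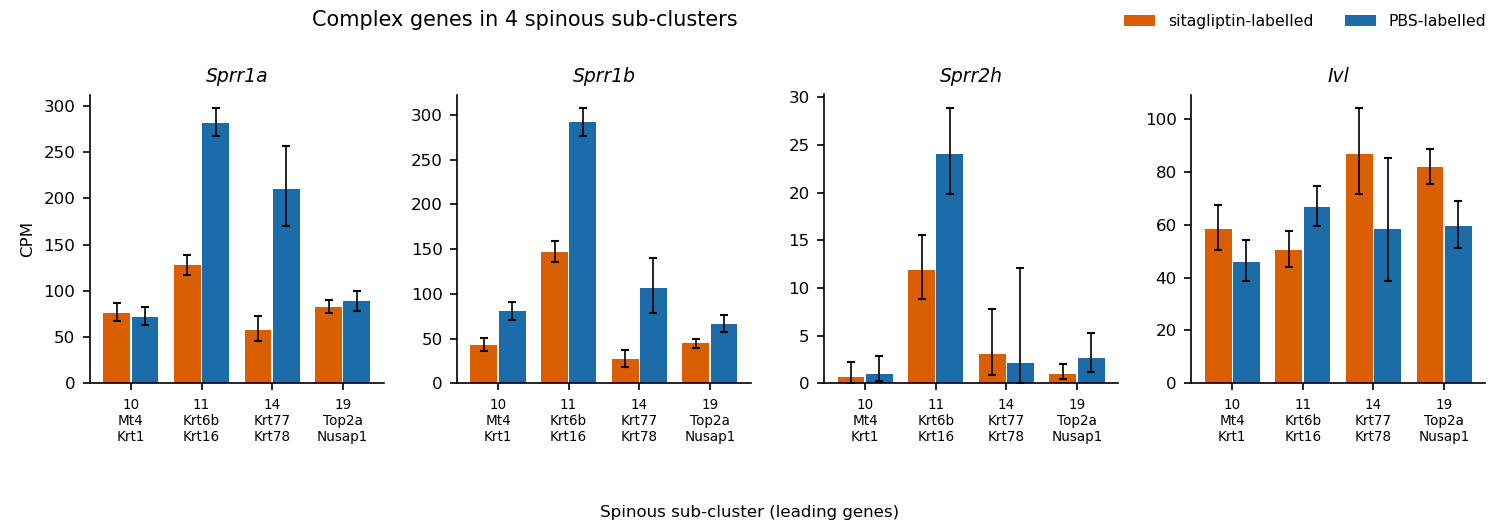
CPM of Sprr1a, Sprr1b, Sprr2h and Ivl in 4 spinous sub-clusters, with bars for the sitagliptin-labelled library left of the PBS-labelled library and lines for the exact Poisson 95% interval. The PBS-labelled bars of Sprr1a and Sprr1b are the taller ones in sub-clusters 11 and 14, and Ivl lies between 46.1 and 86.7 CPM throughout.

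The wound keratins were lower over the whole spinous class, but not in each sub-cluster. All of Krt6a, Krt6b, Krt16 and Krt17, which are induced in injured or activated epidermis, were lower in sitagliptin-labelled spinous cells (4 of 4, median log2 ratio -1.71); Krt16 had 213 CPM in sitagliptin-labelled and 631 CPM in PBS-labelled cells and Krt6b 20.1 and 159 CPM. In sub-cluster 11 Krt6b had 69.8 CPM in sitagliptin-labelled and 384 CPM in PBS-labelled cells. In sub-cluster 10, where Sprr1b was lower, Krt6a had 20.1 CPM in sitagliptin-labelled and 17.7 CPM in PBS-labelled cells. Krt16 was lower there, at 73.5 CPM (64.5 to 83.4) in sitagliptin-labelled and 97.05 CPM (86.4 to 108.7) in PBS-labelled cells. In sub-cluster 19, where Sprr1b was lower as well, Krt6a had 82.3 and 151 CPM and Krt16 72.75 and 78.2 CPM, sitagliptin-labelled before PBS-labelled. In sub-cluster 14 Krt6a had 38.05 and 28.2 CPM and Krt16 49.5 and 156 CPM. Transcripts of other cell types were also lower in the class: the 3 erythrocyte markers summed to 20.8 CPM in sitagliptin-labelled spinous cells, with Alas2 at 0, and to 246 CPM in PBS-labelled ones, and the 8 macrophage markers, of which 8 had UMIs in each library, to 4.19 and 80.3 CPM. In granular cells the macrophage markers summed to 3.84 CPM in the sitagliptin-labelled library, with Lyz2 and Mrc1 at 0, and to 61.6 CPM in the PBS-labelled library, and 3 of the 4 wound keratins were lower. The part of these in the Sprr levels was not tested. Of the regulators, 1 was higher and 2 lower by 1.5-fold in spinous cells; the AP-1 subunits Jun, at 162 CPM in sitagliptin-labelled and 324 CPM in PBS-labelled cells, and Fosl1, at 9.22 and 16.5 CPM, were the lower ones.

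Follicle and basal cells had lower sums than granular cells. Companion layer cells had 432 CPM in 810 sitagliptin-labelled and 226 CPM in 80 PBS-labelled cells, outer root sheath or bulge cells 275 and 152 CPM, and sebocytes 172 and 68.7 CPM. In the companion layer 7 of 10 measured members were higher and 1 lower by 1.5-fold, against 15.5% and 7.5% of all genes. Of the higher ones, Lce1m and Flg2 were above the free-RNA level of both libraries. Lce1m had 28.8 CPM in sitagliptin-labelled and 4.64 CPM in PBS-labelled cells, and Flg2 42.1 and 13.9 CPM. The free-RNA level was 18.7 and 4.03 CPM for Lce1m and 40.9 and 7.76 CPM for Flg2. It lay within the counting interval of Lce1m in PBS-labelled cells (0.958 to 13.6 CPM). It also did for Flg2 in sitagliptin-labelled (36.1 to 48.9 CPM) and PBS-labelled cells (6.37 to 26.45 CPM). In upper follicle cells (1461 sitagliptin-labelled, 812 PBS-labelled) Sprr1a had 165 CPM in sitagliptin-labelled and 220 CPM in PBS-labelled cells, a ratio of 0.749 (0.705 to 0.796), against free-RNA levels of 50.3 and 26.0 CPM. Sprr1a was thus higher in upper follicle than in spinous cells of each library. Of 16 members measured there, 9 were higher and 2 lower by 1.5-fold, against 2.4% and 1.91% of all genes, and 0 of these 11 were above the free-RNA level in both libraries. Median depth was 5354 UMIs in sitagliptin-labelled and 9585 UMIs in PBS-labelled upper follicle cells. The cells of the free-RNA level had 1899.5 and 4453 UMIs, so depth was not matched. In basal cells (1307 sitagliptin-labelled, 1171 PBS-labelled), 9 of 15 measured members were higher and 2 lower, against 3.61% and 3.05% of all genes; 0 of the 9 higher ones were above the free-RNA level in both libraries.

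Sprr2a3 was the member of basal cells that stood out. It had 4.72 CPM in sitagliptin-labelled and 23.6 CPM in PBS-labelled basal cells, a ratio of 0.200 (0.136 to 0.285), with UMIs in 24 sitagliptin-labelled and 84 PBS-labelled cells. In cells that are not keratinocytes it had 4.68 CPM in the sitagliptin-labelled and 1.51 CPM in the PBS-labelled library, so the sitagliptin-labelled basal level is barely above free RNA. Granular cells of both libraries were below these levels, at 1.57 and 0.833 CPM. Of the 31-base words in the last 500 bases of its annotated transcripts 76.9% also occur in other genes, mainly Sprr2a1 and Sprr2a2, so its counts cannot be told apart from those of its copies with certainty. It is 1 of 21 members with over 20% of such words shared, all of them Lce or Sprr genes, whose ratios are uncertain for this reason, among them Lce1a1 (32.6%), Lce1b (50.6%), Lce1c (32.8%) and Lce3c (51.7%); Lor, Ivl, Sprr1a, Sprr1b, Crct1, Flg, Flg2 and Hrnr shared none and Lce1m 1.17%.

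Along the scale from basal to suprabasal keratins, the share of Krt1 and Krt10 among Krt1, Krt10, Krt5 and Krt14 UMIs of a cell, the summed members were lowest in the first of 5 bins of equal width in both libraries, at 287 CPM in sitagliptin-labelled and 167 CPM in PBS-labelled cells. They were highest in the last bin, at 4597 CPM in sitagliptin-labelled and 3838 CPM in PBS-labelled cells. Between these bins the PBS-labelled library did not rise steadily, with 1964 CPM in bin 2 and 763 CPM in bin 3. Tchh went the other way in the sitagliptin-labelled library, with 33.7 CPM in the first bin and 4.63 CPM in the last, and Sprr2a3 in the PBS-labelled library, with 23.2 CPM in the first and 0.668 CPM in the last.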

How the data were processed

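Polyadenylated RNA of skin cells was measured in 1 sitagliptin-labelled and 1 PBS-labelled 10x library. The deposited values are raw UMI counts per gene and barcode, which the authors made with Cell Ranger 3.1.0 and the mm10 build, per the submitters' processing notes; the sources used here do not say how cells were called. Barcodes were kept from 500 genes and 1000 UMIs upward if mitochondrial UMIs made up 10% or less. Counts were scaled to 10000 per cell and clustered without the members (2000 variable genes, 30 principal components, 15 neighbours, Leiden resolution 1, seed 1; scanpy 1.11.5, leidenalg 0.10.2, Python 3.11.15). The 27 clusters were named from 23 marker lists. Scrublet called 2 doublets in all, so it had not worked and doublets were left in. UMIs were summed per class and library. A member was measured with at least 20 UMIs over both libraries and called at 1.5-fold after adding 1 CPM. Ratio intervals are exact conditional binomial and level intervals exact Poisson (scipy 1.17.1), at 95%, and the steps were tested on simulated data. No p-value was computed. Values are given in full for members of at least 50 CPM in a class of at least 200 cells per library and for the extremes among called members; called genes of other lists, and Tchh, Rptn and the Lce genes described beyond this, were chosen after their values were seen. The members and lists were chosen with earlier results of these data known. Alternatives included edgeR 4.0.16 TMM scaling, thinning to 1000 UMIs, other filters and other clusterings. Classes were named anew at each clustering, so the other clusterings compare partly other cells.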

Additional observations from a re-analysis of the deposited data

How the results depend on the processing

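With 1 library per treatment no setting tests a difference, and no replicate could be left out. No paired analysis was possible because each group has 1 library. The summed granular ratio of 0.948 was 0.927 under minimums of 1000 genes and 2000 UMIs, 1.22 with at most 5% mitochondrial UMIs, 1.03 after thinning to 1000 UMIs, 1.02 as the mean of each cell's CPM, 0.543 at Leiden resolution 2, 0.685 with the members used in clustering, 0.738 with clusters nearly all of 1 library kept and 1.08 without each member's highest cell per library. The last pair of settings was chosen after seeing the data. The 9 members higher in granular cells became 17 with at most 5% mitochondrial UMIs and 14 without the highest cells. The 7 lower became 4 with at most 5% mitochondrial UMIs, 2 after thinning, 17 at Leiden resolution 2 and 2 without the highest cells. The summed spinous ratio of 0.799 was 0.733 with at most 5% mitochondrial UMIs, 0.772 after thinning, 1.29 at Leiden resolution 2, 0.997 with the members used in clustering, 0.767 without the 8% highest doublet scores, 0.879 with clusters weighted equally, 1.11 with clusters of 1 library kept and 0.834 without the highest cells. The 10 members higher in spinous cells became 3 after thinning and 16 with clusters of 1 library kept, and the 5 lower became 2 after thinning and 2 at Leiden resolution 2. The summed upper follicle ratio of 1.02 was 1.07 with at most 5% mitochondrial UMIs, 0.877 after thinning, 0.918 as the mean of each cell's CPM, 0.953 at Leiden resolution 2 and 1.10 with the members used in clustering. Turns of direction were listed for 20 members and the class sums. Among their called values, directions turned for Lce1a2 in granular cells (0.914 at Leiden resolution 2). Tchh in granular cells turned to 7.67 at Leiden resolution 2 and to 8.03 with the members used in clustering. It also turned to 1.68 without the highest cells, which removes the cell of 163 UMIs. Rptn turned in spinous cells (2.13 at Leiden resolution 2) and Sprr2h in basal cells (1.47 as the mean of each cell's CPM). The sebocyte sum turned as well (0.677 with at most 5% mitochondrial UMIs). Outside these 20 members, Lce1e, Lce1f and Lce1g, called lower in granular cells, also turned without the highest cells. There 17 of 17 measured Lce genes had a ratio above 1, the lowest at 1.05. Uncalled granular ratios above 1 also crossed it at Leiden resolution 2 (Lce1m 0.674, Lce1a1 0.787, Lce1b 0.785, Ivl 0.820), granular Crct1 crossed it upward after thinning (1.15) and spinous Ivl downward (0.724); other uncalled ratios near 1 crossed it too. Apart from that Tchh cell, the cause was not tested. A ratio was taken as the same within its counting interval, a call count within 1.5-fold and a median within a fixed limit. For the summed ratios of granular, spinous and upper follicle cells and the call counts of granular and spinous cells, 57 values stayed the same. Another 31 of these moved. Of the other values, 500 stayed the same, 202 moved and 7 turned. The ratios of Lce1e, Lce1f and Lce1g are not in these counts. TMM scaling moved log2 ratios by at most 0.04. Sprr1b in spinous cells lay between 0.331 and 0.632 and Flg in granular cells between 0.292 and 0.726 over the alternatives. Few cells, free RNA and unequal depth limit the low members.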

Other observations

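The clusters left out of the classes also held members. The cluster led by Lypd5, Cdsn, Cnfn and Nccrp1 had a summed member level of 3016 CPM in 1635 sitagliptin-labelled cells and 3890 CPM in 29 PBS-labelled cells, with Lor at 1021 CPM in sitagliptin-labelled and 1753 CPM in PBS-labelled cells. Its median depth was 2994 UMIs in sitagliptin-labelled and 9915 UMIs in PBS-labelled cells. The cluster led by AY036118, Gm42418 and Malat1 had 1094 CPM in 3114 sitagliptin-labelled and 383 CPM in 22 PBS-labelled cells, and the sebocyte-led cluster had 941 CPM in 1269 sitagliptin-labelled and 396 CPM in 9 PBS-labelled cells.

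After thinning to 1000 UMIs per cell, Lor was detected in 41.8% of sitagliptin-labelled and 30.8% of PBS-labelled granular cells, and in 17.5% of sitagliptin-labelled and 2.65% of PBS-labelled cells that are not keratinocytes. Ivl was detected in 26.9% of sitagliptin-labelled and 27.4% of PBS-labelled granular cells, against 6.93% and 0.922% in cells that are not keratinocytes.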
